A study of Mus musculus with 2 samples.

Results

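The cells described here are CD8 T cells from mouse adipose tissue. They were chosen by measured values, as the cells of cluster 2 in the authors' deposited clustering that held at least 1 UMI of Cd8a and Cd8b1 together and 0 UMIs of Cd4. A UMI (unique molecular identifier) marks 1 captured RNA molecule. This gave 252 of the 10017 clustered cells, 46 from the chow library and 206 from the ketogenic diet library. Cluster 2 as a whole held 236 and 821 cells.

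The study sequenced single CD45+ (leukocyte) cells from adipose tissue of adult wild-type C57BL/6 mice with 10x Genomics libraries. Control mice ate chow, and the others a ketogenic diet for 1 week, which replaces most carbohydrate with fat so that the liver makes ketone bodies. Blood leukocytes had been marked by an intravenous label so that tissue-resident cells could be told from circulating ones. Each diet is 1 library, and the number, exact age and sex of the mice behind each are not given in the sources used here. Every difference between diets is therefore a difference between 2 libraries, with no replicate check, and the 95% intervals below (exact binomial for shares, exact Poisson for UMI sums, exact conditional for ratios) cover counting error only.

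A CD8 T cell recognises peptides held by MHC class I through a T cell receptor, assisted by the CD8 co-receptor, a dimer of the Cd8a and Cd8b1 products. Naive CD8 T cells circulate through lymph nodes with the help of the receptor Ccr7. Memory and effector cells make chemokines such as Ccl5, granzymes and interferon gamma (Ifng), and those that stay in a tissue often carry Cxcr6 and Cd69.

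The cells held 140978 UMIs under chow and 752440 under the ketogenic diet. Median depth was 2861 UMIs per cell (1796 to 6359) and 3071.5 (2053 to 9771), with medians of 1060.5 and 1217 genes detected. Ribosomal protein genes took 38.8% and 35.3% of the UMIs. Of 41 barcodes that occur in both libraries, 1 belonged to a chow CD8 cell and 0 to a ketogenic one. Transcripts of other cell types were present in the CD8 cells and differed between the libraries. Lyz2 and Retnla, made by macrophages, had UMIs in 73.9% and 69.6% of the chow CD8 cells and in 26.7% and 17.5% of the ketogenic ones. In cluster 0, where only 3.51% and 5.27% of cells held a Cd3e UMI, the matching shares for Lyz2 were 74.0% and 25.8%, and for Retnla 74.2% and 15.3%. RNA free in the cell suspension is shared by all cells in this way, and its part in the results was not tested.

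The label was read against the T cell markers. Cluster 2 was itself led by genes such as Trac, Cd3d, Cd3e and Cd3g, so their presence follows in part from the choice of cells. Each of the 46 and 206 cells carried at least 1 UMI of Cd3d, Cd3e or Cd3g, the CD3 chains of the receptor. Trac, the constant chain of the alpha receptor, was found in 54.3% of chow cells (25 of 46) and 85.0% of ketogenic cells (175 of 206). Expected at 1500 UMIs per cell, these shares were 38.4% and 63.3%. Genes of gamma-delta T cells summed to 2 and 39 UMIs, and Trdc, the delta constant chain, had 0 and 18. Of the other markers, Gzmm (granzyme M) was in 26.1% and 15.5% of cells and Dapl1, a gene of naive-type and central memory T cells, in 37.0% and 20.9%. Among the 10 genes that led the CD8 cells over all other cells were Cd8b1, Cd8a, Dapl1, Cd3d, Gzmm, Ccl5, Trac and Cd3e. That ranking follows from the selection and is given as a description. None of the 10 differed 2-fold between the diets. The largest of these differences were log2 0.92 for Trac, 0.87 for Cd3e and -0.87 for Dapl1.

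The co-receptor genes chose the cells, and they were shallow. Under chow Cd8a gave 49 UMIs and Cd8b1 128, and under the ketogenic diet 330 and 740. UMIs of both genes were present in 19 of 46 chow cells (41.3%, interval 27.0 to 56.8) and in 128 of 206 ketogenic cells (62.1%, 55.1 to 68.8). Cells with Cd8b1 alone numbered 22 and 62, and cells with Cd8a alone 5 and 16. A cell held a median of 3 and 4 UMIs of the pair and at most 14 and 19. At the edge of the rule, 8 chow and 30 ketogenic cells had exactly 1 UMI of the pair, and 4 and 6 cells just outside it had 1 UMI of Cd4 besides. A further 129 and 392 cells of cluster 2 had no UMI of Cd4, Cd8a or Cd8b1 and stayed out, so a cell whose co-receptor RNA was missed is not counted.

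Under the ketogenic diet CD8 T cells made up a larger share of the cells. They were 1.03% of the chow library (interval 0.756 to 1.37) and 3.71% of the ketogenic one (3.22 to 4.24), a ratio of 3.59 (2.60 to 5.06). The whole of cluster 2 was also larger, 5.29% against 14.8%, a ratio of 2.79 (2.41 to 3.24). Cells of cluster 2 with Cd4 and no CD8 UMIs, called Cd4 cells below, numbered 56 and 212, a ratio of 3.04 (2.25 to 4.15). Within cluster 2 the CD8 share was 19.5% for chow and 25.1% for the ketogenic diet. The interval of that ratio, 1.29 (0.931 to 1.81), includes 1. A share of a library says nothing of cell numbers in the tissue, because a fall in any other cell type raises it. With clusters 3 and 8 left out of the total, the ratio was 2.70, and in clusters 2, 7 and 11 together it was 1.54.

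The comparison with the Cd4 cells of the same cluster asks what else the CD8 cells carried. Both libraries were used separately, and a gene counted when the log2 ratio of CPM (a gene's summed UMIs over the summed total, scaled to 1000000 UMIs, with 0.5 added to each count) passed 1, which is 2-fold, in both. Of 2049 genes with at least 100 UMIs, 9 were higher in CD8 cells (0.439%) and 18 lower (0.878%). The higher genes were mostly cytotoxic and killer-receptor genes, among them Ccl5, Klrd1, Ly6c2, Ctsw, Klrk1, Cst7, Nkg7 and Gzmb. Under chow Gzmb rested on 5 UMIs against 2 in Cd4 cells, and Cst7 on 11 against 3. Their chow fold intervals, 0.397 to 25.4 and 0.938 to 19.8, include 1.

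Ccl5, a chemokine stored by memory CD8 cells, gave 1379 UMIs in chow CD8 cells and 8857 in ketogenic ones, or 9782 and 11771 CPM. In Cd4 cells it stood at 1947 and 2134 CPM. The CD8 level was 5.02-fold (4.40 to 5.75) and 5.52-fold (5.23 to 5.82) the Cd4 level. Per cell it ran from 0 to 117 UMIs with a median of 18 under chow, and from 0 to 253 with a median of 36 under the ketogenic diet. Ccl5 was present in 89.1% and 95.1% of CD8 cells, against 47.8% and 60.1% in cluster 0. At 1500 UMIs per cell these became 82.0% and 89.0% against 31.0% and 35.6%.

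Nkg7, a protein of cytotoxic granules, gave 2022 and 1956 CPM in CD8 cells and 776 and 887 in Cd4 cells, log2 ratios of 1.38 and 1.14. Ly6c2, a surface protein of memory-type CD8 cells, had ratios of 1.80 and 1.87. The killer lectin receptors Klrd1 and Klrk1, which bind class I-type ligands, reached 2.56 and 1.81 for the first and 1.27 and 1.55 for the second. Ctsw, a cathepsin of cytotoxic lymphocytes, had 1.58 and 1.64, and Cst7, a cystatin of their granules, 1.67 and 1.17. Gzmm did not reach 100 UMIs, with 16 and 66 UMIs in CD8 cells and 0 and 6 in Cd4 cells.

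Lists were read at 20 UMIs in CD8 and Cd4 cells together, where 0.872% of 6419 genes were higher in CD8 cells in both libraries and 1.81% lower. Among the 12 single genes with the lowest ratios were genes of helper and regulatory CD4 cells. Maf, a transcription factor, had log2 ratios of -2.52 and -1.89, and Cd40lg, the ligand by which helper cells stimulate B cells, -1.81 and -2.01. Tnfrsf4 (OX40) had -1.87 and -3.01 and Ikzf2 (Helios) -4.08 and -1.58, the last on 1 chow UMI in CD8 cells. Ass1, Izumo1r, Smco4, Tspan32, 2310001H17Rik, Faah and Hif1a were also among the 12. Of 9 helper and regulatory genes with 20 UMIs, 7 were lower in CD8 cells in both libraries (Cd40lg, Foxp3, Ikzf2, Il2ra, Tnfrsf4, Icos and Izumo1r) and 0 higher. Gcg, a hormone gene, also ranked here, but 99.5% of its 196 ketogenic UMIs lay in 1 Cd4 cell, and CD8 cells had 0.

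**Figure D1:**
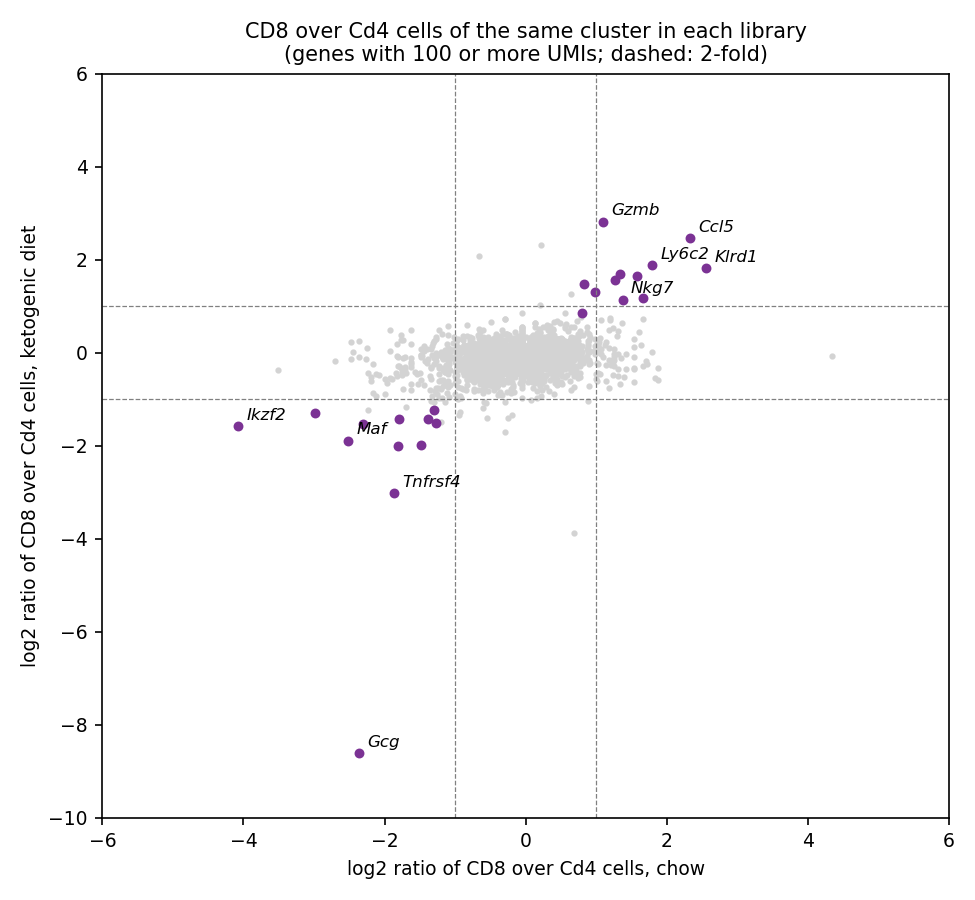
Log2 ratio of summed CPM in CD8 over Cd4 cells of cluster 2, chow library on the horizontal and ketogenic library on the vertical axis, for 2049 genes (grey) and the 12 highest and 12 lowest (purple). Gzmb, Ccl5, Klrd1, Ly6c2 and Nkg7 are beyond 2-fold in both libraries on the high side, and Ikzf2, Maf and Tnfrsf4 on the low side. The chow value of Gzmb rests on 5 UMIs in CD8 cells and 2 in Cd4 cells.

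Of 11 genes of killer receptors and their signalling adaptors at 20 UMIs, Klrd1, Klrk1, Klrc1, Klre1 and Klra7 were higher in both libraries. Ncr1, a receptor of NK cells, was the 1 lower gene, on 0 and 8 UMIs against 1 and 19. Of the 28 memory and effector genes measured, 7 were higher (Eomes, Ccl5, Nkg7, Gzmb, Gzmm, Ly6c2 and Ctsw) and 0 lower. Eomes, a transcription factor of memory CD8 cells, had 4 and 32 UMIs against 0 and 7 in Cd4 cells. Of 12 activation and inhibitory receptors, 1 was higher (Cd160) and 3 lower (Tnfrsf4, Icos and Il2ra). Of 20 T cell receptor and signalling genes, 0 were past 2-fold in either direction, with medians of -0.32 and -0.19. The median over all 6419 genes was -0.05 and -0.11.

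The CD8 cells were not uniform. At least 1 UMI of Ccr7 or of Lef1, a transcription factor of naive and central memory T cells, was found in 20 of 46 chow cells (43.5%, 28.9 to 58.9) and in 67 of 206 ketogenic cells (32.5%, 26.2 to 39.4). This pair is called the naive-type set below. At 1500 UMIs per cell the expected shares were 25.7% and 20.1%, and with 2 UMIs required they were 15.2% and 19.4%, in the opposite order. The intervals at 1 UMI overlapped. In cluster 0 the set was found in 5.50% and 4.73% of cells, at median depths of 2610.5 and 3133 UMIs, below the CD8 shares. Ccr7 alone was in 32.6% and 22.8% of CD8 cells and in 10.7% and 20.8% of Cd4 cells. For Lef1 the shares were 17.4% and 19.9% of CD8 cells and 10.7% and 17.9% of Cd4 cells. Cluster 9 had Ccr7 in 28.0% and 50.2% of cells and Lef1 in 1.22% and 3.67%, at median depths of 5806 and 4192 UMIs. These transcripts are therefore not particular to CD8 cells. Memory-type genes (Ccl5, Cd44, Il2rb, Nkg7 and Cxcr3) had at least 1 UMI in 97.8% and 100% of CD8 cells and in 80.3% and 83.3% of cluster 0 cells, so the number of UMIs is given instead.

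The range with the naive-type set and the range without it differed in memory-type UMIs. The 20 chow cells with the set held a median of 14 memory-type UMIs per cell, and the 26 without it 38.5. Under the ketogenic diet the medians were 27 in 67 cells and 50 in 139 cells. The cells with the set held fewer of them although they were deeper (median 3191 against 2600.5 UMIs under chow, 4207 against 2897 under the ketogenic diet). Cells with 3 or more UMIs of the set, 4 and 26, held medians of 2.5 and 6.5. The plot of both sets per cell shows a spread with no gap between the ranges. At exactly 1 UMI of the set sit 13 and 27 cells, with medians of 25 and 38 memory-type UMIs. Counts this low can hide a gap, so the plot cannot tell a range from 2 kinds of cell. The split is a cut by UMI count.

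**Figure D2:**
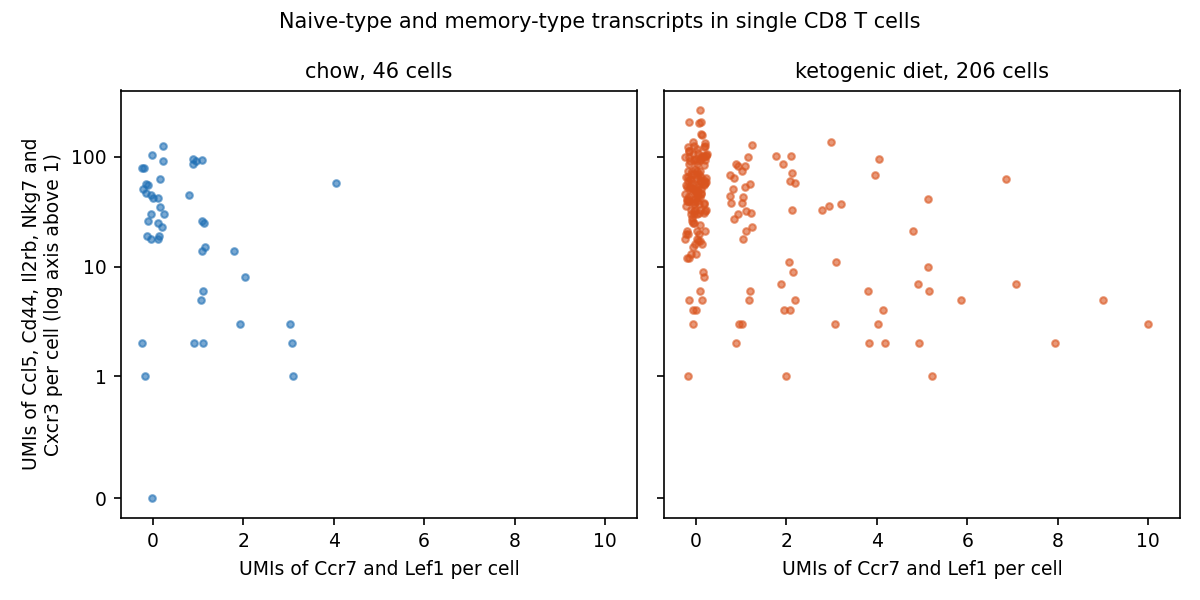
UMIs of Ccr7 and Lef1 (horizontal, points spread sideways for visibility) against UMIs of Ccl5, Cd44, Il2rb, Nkg7 and Cxcr3 (vertical, log axis above 1) in each of the 46 chow and 206 ketogenic CD8 cells. Cells at 0 on the horizontal axis lie mostly at high memory-type counts, with medians of 38.5 and 50, and most cells at 3 or more lie lower, with medians of 2.5 and 6.5.

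Of 991 genes with 100 UMIs, 2 were 2-fold higher in cells with the set in both libraries (0.202%) and 15 lower (1.51%). Dapl1 was among the higher. It stood at 581 CPM with the set and 180.3 without it under chow, and at 399 and 83.3 under the ketogenic diet, log2 1.65 and 2.25. Among the lower were Ccl5, Ccl4 and Fasl (chemokines and the Fas ligand of effector cells), Ifng, Id2 (a regulator of effector differentiation), S100a4, Cxcr4 and Smpdl3a. Ccl5 had ratios of -1.03 and -1.27, and Fasl -1.52 and -1.80. Ifng had 1 UMI in the 20 chow cells with the set and 3 in those without it, and 14 and 96 under the ketogenic diet. The set and the memory-type genes may have entered the clustering, and these ratios are a description of the selected cells.

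Between the diets most genes of the CD8 cells lay close together. Of 992 genes with 100 UMIs, 25 were at least 2-fold higher under the ketogenic diet (2.52%) and 9 lower (0.907%), around a median log2 ratio of 0.08, and from -0.61 to 0.81 between the 5th and 95th percentile. The minimum is a sum over both libraries, and the ketogenic cells hold most of the UMIs, so it admits more genes that are high under that diet. The 25 higher genes had 4 to 26 chow UMIs. With the same minimum set on the mean CPM of both libraries, 11 of 965 genes were higher (1.14%) and 14 lower (1.45%), so the excess of higher genes rests on the filter. The highest ratios were those of Rgs1, Cxcr6, Ifng, Lamp1, Smpdl3a and Gzmb, and the lowest those of Retnla and Lyz2. Of the 12 highest, Rgs1, Cxcr6, Xcl1 and Ypel3 also passed the minimum on the mean. With ribosomal protein and mitochondrial genes left out of the totals, 20 were higher and 14 lower, and with 3 added to each count 13 and 11. In Cd4 cells 30 of 1112 genes were higher (2.7%) and 10 lower (0.899%), and 14 and 19 of 1085 with the minimum on the mean.

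Rgs1 (chr1:144242296-144249242, minus strand, GRCm38), a regulator of chemokine receptor signalling that is abundant in tissue T cells, had 5 UMIs in the chow cells and 147 in the ketogenic ones, or 35.5 CPM (11.5 to 82.8) and 195 CPM (165 to 230). The ratio was log2 2.33, with a fold interval of 2.31 to 17.2. It was found in 5 of 46 and 77 of 206 cells. At 1500 UMIs these shares became 4.96% and 22.6%. In cluster 0 Rgs1 was in 28.5% and 32.3% of cells. In Cd4 cells the log2 ratio was 0.21.

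Cxcr6 (chr9:123806475-123811760, plus strand), the receptor for Cxcl16, went from 6 UMIs to 169, or 42.6 CPM (15.6 to 92.6) and 225 CPM (192 to 261). The ratio was log2 2.29 (fold 2.37 to 14.6). Under chow 4 of 46 cells (8.70%, 2.42 to 20.8) held a UMI and under the ketogenic diet 80 of 206 (38.8%, 32.1 to 45.9), which at 1500 UMIs gave 4.51% and 25.1%. In cluster 3, where Lyz2 was in 99.9% and 99.3% of cells, Cxcr6 was in 5.24% and 5.52% of cells at median depths of 5543 and 5589 UMIs, and in 1.48% and 2.07% at 1500 UMIs. In cluster 0 it was in 54.7% and 64.3% of cells, or 39.6% and 43.3% at 1500 UMIs. The chow share rests on 4 cells. Cd4 cells had 139 and 161 CPM, log2 0.18. With at least 2 UMIs of Cd8a and Cd8b1 required, the CD8 ratio was 3.30.

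Ifng (chr10:118441046-118445892, plus strand), interferon gamma, gave 4 and 110 UMIs, or 28.4 CPM (7.73 to 72.6) and 146 CPM (120 to 176), log2 2.20 (fold interval 1.956 to 19.2). It was in 6.52% and 24.3% of CD8 cells and in 0.585% and 2.44% of cluster 0 cells. Cd4 cells had 80.5 and 139 CPM, log2 0.73. Gzmb (chr14:56258838-56262260, minus strand), granzyme B, the protease that starts death in target cells, gave 5 and 101 UMIs, log2 1.79 (fold 1.57 to 11.9). Under chow 60.0% of its UMIs lay in 1 cell. Cd4 cells had 2 and 14 UMIs of it. The Gzmb ratio was 1.09 in cells without Ccr7 and Lef1 UMIs, and 2.90 without the chow cell that held the most Gzma.

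Promoters are shown for 3 of the genes above, so that the higher genes can be read against their upstream sequence. Of the 12 highest genes, 9 matched RefSeq promoters of the GRCm38.p6 build. Each line gives the 250 bases before the start, 5′ to 3′ on the gene's own strand, with capitals for matches on either strand to GGTGTGA (T-box), TGTGGT (Runx), TGANTCA (AP-1) or CTTTGA (TCF/LEF). No motif contains another. The windows are chr9:123806227-123806476, plus strand for Cxcr6, chr14:56262335-56262584, minus strand for Gzmb, and chr10:118440796-118441045, plus strand for Ifng.

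Cxcr6: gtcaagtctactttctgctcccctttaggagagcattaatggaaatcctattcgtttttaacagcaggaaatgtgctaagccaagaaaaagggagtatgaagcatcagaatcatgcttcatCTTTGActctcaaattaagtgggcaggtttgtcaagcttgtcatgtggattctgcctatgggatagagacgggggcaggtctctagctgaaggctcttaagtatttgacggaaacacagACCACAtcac
Gzmb: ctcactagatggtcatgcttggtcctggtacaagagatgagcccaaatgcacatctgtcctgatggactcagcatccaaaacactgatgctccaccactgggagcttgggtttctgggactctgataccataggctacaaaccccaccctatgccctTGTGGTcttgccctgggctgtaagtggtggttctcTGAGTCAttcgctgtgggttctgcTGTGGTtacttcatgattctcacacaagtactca
Ifng: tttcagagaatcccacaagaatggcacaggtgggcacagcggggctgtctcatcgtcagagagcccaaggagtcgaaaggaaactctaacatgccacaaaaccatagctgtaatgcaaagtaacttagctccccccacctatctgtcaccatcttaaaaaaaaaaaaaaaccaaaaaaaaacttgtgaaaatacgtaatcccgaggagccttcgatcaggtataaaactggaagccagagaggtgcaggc

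The Cxcr6 window holds 1 Runx and 1 TCF/LEF match, and that of Gzmb 2 Runx and 1 AP-1 matches. The Ifng window holds 0 of the 4 motifs, which says only that these letters are not in it. Over the 9 windows, 4 genes had a Runx match, 4 a TCF/LEF match, 2 an AP-1 match and 1 a T-box match. In all 32851 RefSeq promoters of the same length the shares were 14%, 13.8%, 6.75% and 3.33%. These are matches of letters and not measured sites.

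The other genes of the highest 12 were Lamp1 and Smpdl3a (lysosomal membrane protein and lysosomal-type phosphodiesterase), G3bp1 (stress granules), Slbp (histone mRNA binding), Xcl1 (a chemokine for cross-presenting dendritic cells), Ypel3, Tsc22d4 and Bcl2a1d (a survival factor). Lamp1 had 4 and 97 UMIs, log2 2.02, and Smpdl3a 4 and 96, log2 2.01. Xcl1 had 8 and 129, log2 1.51, and was higher in Cd4 cells too, at log2 2.14. G3bp1 was at 1.77 and 1.18 in the 2 kinds of cell. Lamp1 was also in 36.2% and 58.5% of cluster 0 cells and in 92.3% and 94.5% of cluster 3 cells. Among these 12 genes the Cd4 ratio was past 2-fold for G3bp1 and Xcl1 only. The 12 were picked by their CD8 ratio, so smaller Cd4 ratios can follow from that choice. Whether CD8 and Cd4 cells differ in their diet ratio could not be tested with 1 library a diet.

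**Figure D3:**
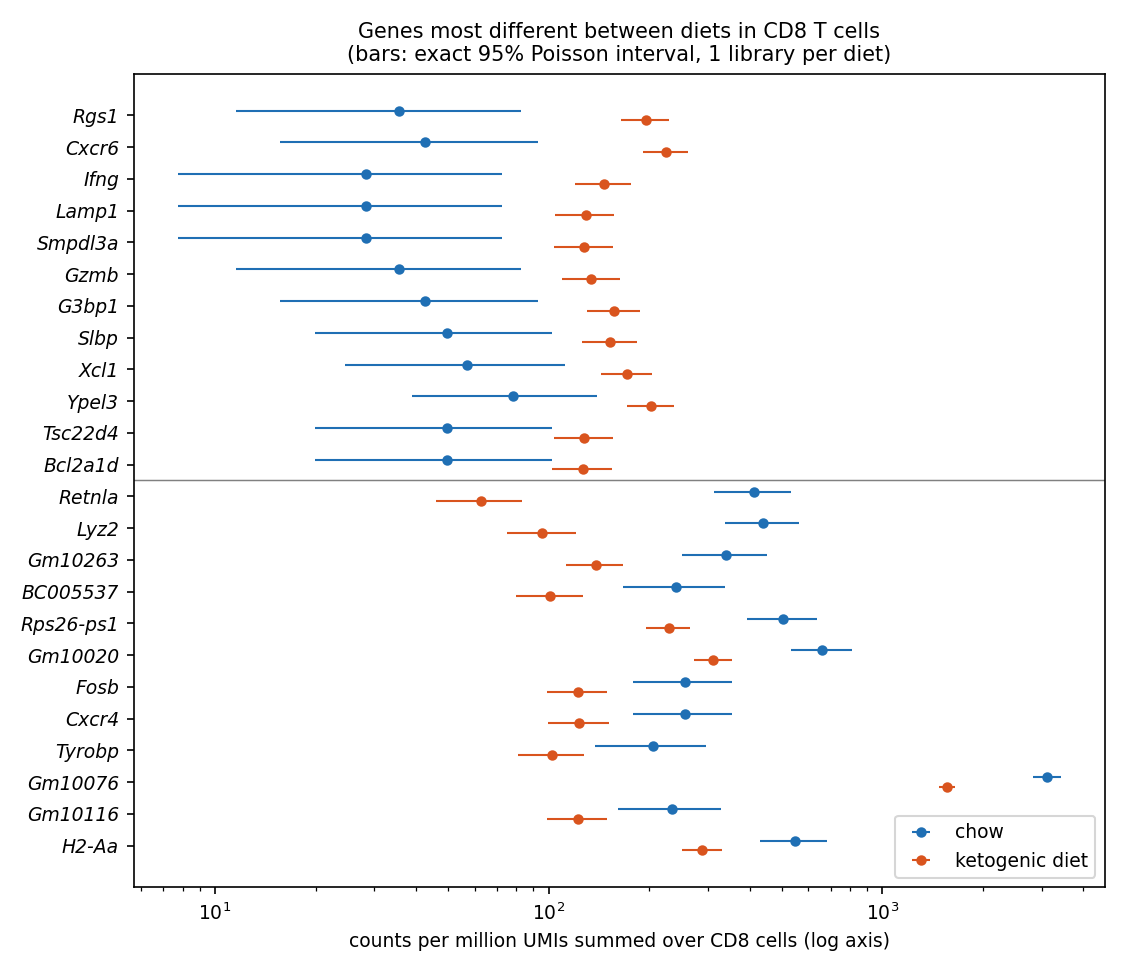
CPM of the 12 highest and 12 lowest genes by diet ratio in the CD8 cells (log axis, points the summed level in the chow and ketogenic libraries, bars the exact 95% Poisson interval). For the upper 12 the ketogenic points stand to the right, 195 against 35.5 CPM for Rgs1, and for the lower 12 the chow points do, 411 against 62.5 CPM for Retnla.

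The lower side was led by Retnla and Lyz2, genes of macrophages and not of T cells. Retnla had 58 and 47 UMIs, 411 CPM (312 to 532) and 62.5 (45.9 to 83.1), log2 -2.72. Lyz2 had 62 and 72 UMIs, log2 -2.20. In Cd4 cells the same genes had -3.29 and -2.58. When 10% of the CD8 UMIs of each library were subtracted as free RNA, Retnla was left with 0 UMIs under chow and 18.0 under the ketogenic diet, Lyz2 with 0 in both, and Tyrobp, an adaptor of myeloid and NK receptors, with 2.07 and 0. No diet direction can be read for these 3 genes after that subtraction. The summed level of the 15 macrophage and monocyte genes was 1717 CPM (1507 to 1947) under chow and 864 (799 to 933) under the ketogenic diet. Within 5 of them that reached 20 UMIs, the median log2 ratio was -1.11, and -2.14 in Cd4 cells. 

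Fosb, an immediate early transcription factor, had 36 and 92 UMIs, log2 -1.07, and -1.20 in Cd4 cells. Cxcr4, a chemokine receptor that holds cells in bone marrow and lymphoid tissue, had 36 and 93 UMIs, log2 -1.06, and -0.84 in Cd4 cells. Both are among the genes that cell handling can move, and handling and diet cannot be told apart with 1 library each. The remaining low genes were Gm10263, BC005537, Rps26-ps1, Gm10020, Gm10076 and Gm10116. Of these, Gm10263, Rps26-ps1 and Gm10020 are annotated as processed pseudogenes, so reads of a near-identical parent gene could be counted there and their values are uncertain. H2-Aa, an MHC class II chain, was at -0.93, with 18.4% of its ketogenic UMIs in 1 cell.

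**Figure D4:**
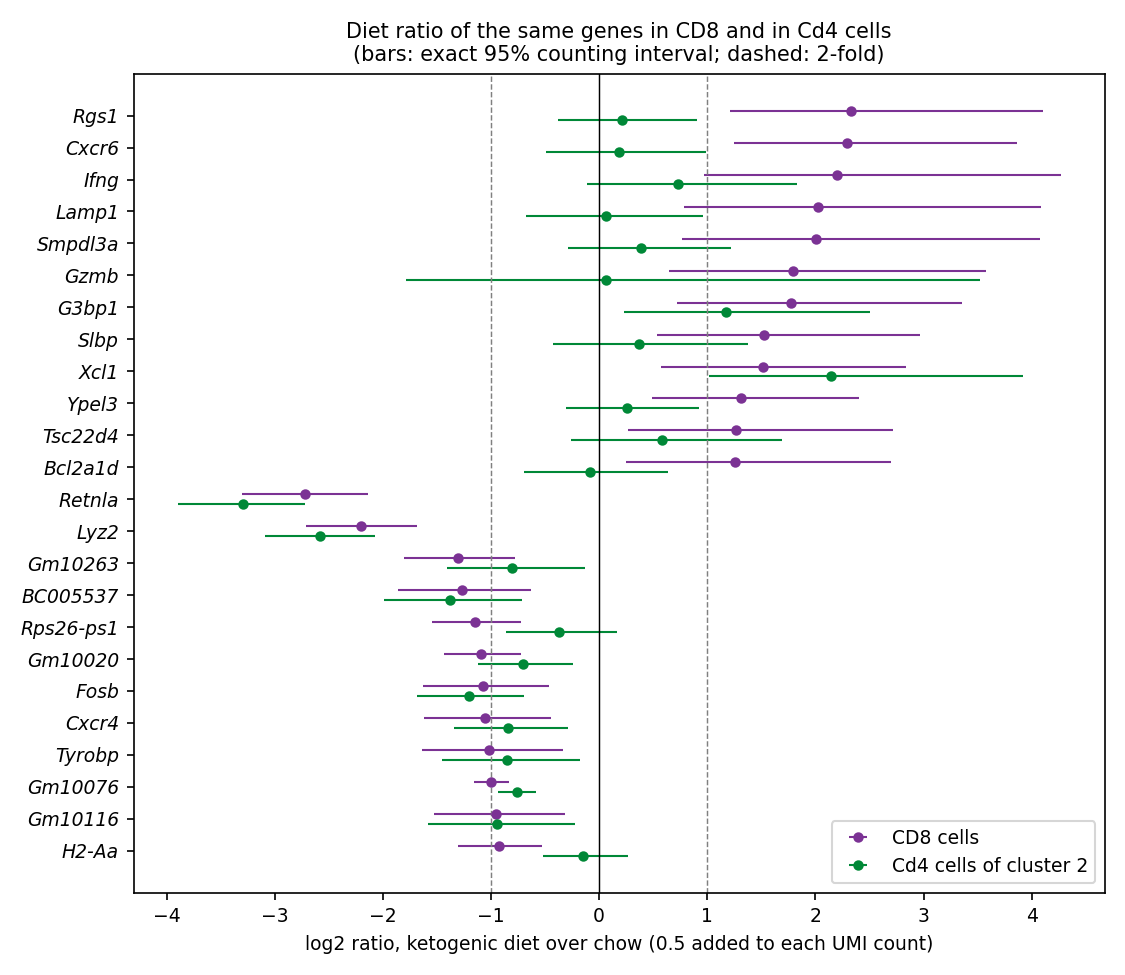
Log2 ratio, ketogenic diet over chow, of the 12 highest and 12 lowest genes in CD8 cells (purple) and the same genes in Cd4 cells of cluster 2 (green), with exact 95% counting intervals and 2-fold lines. Purple points for Rgs1, Cxcr6, Ifng, Lamp1 and Smpdl3a lie past 2, where the green ones are between 0.06 and 0.73. At Retnla and Lyz2 both are on the low side. The genes were picked by their CD8 ratio, so smaller Cd4 ratios can follow from that choice.

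Gene lists were read with a lower minimum of 20 UMIs over both libraries. At that depth 10.1% of 4273 genes were 2-fold higher under the ketogenic diet and 3.93% lower, with a median of 0.07. With the minimum on the mean CPM of both libraries these shares were 6.93% and 6.68% of 4114 genes, so a list's count of higher genes can also be raised by the filter.

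Of 27 memory and effector genes, 7 were higher (Ccl4, Ifng, Gzmb, Gzmk, Klrg1, Cxcr3 and Xcl1) and 2 lower (Gzma and Il18r1), with a list median of 0.27. Ccl4, a chemokine of activated T cells, had 17 and 219 UMIs, log2 1.23, against -0.85 in Cd4 cells. Cxcr3, a homing receptor, had 14 and 176 UMIs, in 26.1% and 52.4% of cells, log2 1.19. Gzmk had 2 and 56 UMIs, a fold of 5.25 (1.39 to 44.4). Gzma went the other way with 31 and 34 UMIs, but 25 of the 31 lay in 1 chow cell. Ccl5, at log2 0.27, and Nkg7, at -0.05, were close between the diets, although both set CD8 cells apart from Cd4 cells. Prf1 (perforin) had 0 and 3 UMIs, where 3 counts allow 21.3 CPM under chow and 3.99 under the ketogenic diet.

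Of 17 naive and circulating genes, 1 was higher (Igfbp4, 1 and 25 UMIs) and 0 lower, with a median of -0.05. Ccr7 was at log2 0.05, Lef1 at 0.09, Tcf7 at -0.05 and Il7r at -0.01. Klf2, a factor that promotes recirculation, was at -0.27, and S1pr1, the receptor used to leave tissue, at -0.66. None of these values passed 2-fold.

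The tissue residency list had 16 genes, of which 8 were measured and 3 higher (Cxcr6, Rgs1 and Xcl1), with a median of 0.73. Cd69, which retains cells in tissue, had 14 and 132 UMIs, log2 0.78 (fold 1.02 to 3.32). Itgae, the CD103 integrin of epithelial resident cells, had 0 UMIs in both libraries, which allows a share of cells with a UMI of up to 6.52% and 1.46%. This limits cells with a UMI, and not cells that express the gene. The median of the 8 genes in Cd4 cells was 0.13. With 3 added to each count the list median was 0.32.

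Among the cytokine and homing receptors, 3 of 27 were higher, Cxcr3 and Cxcr6 among them, and 3 lower (Tgfbr2, Il18r1 and Cxcr4), with a median of 0.05. Of 8 activation and inhibitory receptors 0 were past 2-fold, at a median of 0.60. Pdcd1 (PD-1) had 4 and 43 UMIs, log2 0.86, and Tox, a factor of chronically stimulated cells, 3 and 30, log2 0.71. Lag3 had 0 and 14. Of 8 genes of killer receptors and their signalling adaptors, 1 was higher (Klrc1, 5 and 62 UMIs) and 1 lower (the adaptor Tyrobp). The list median was -0.29. After subtraction of 10% free RNA, Tyrobp kept 2.07 and 0 UMIs and Fcer1g, also an adaptor, 0 in both. No diet direction can be read for these adaptors after that subtraction. The deepest receptors, Klrd1 and Klrk1, were at log2 0.01 and -0.07. Cell cycle genes were 0 higher and 1 lower of 12, and Mki67, a marker of dividing cells, had 2 and 4 UMIs.

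T cell receptor genes leaned one way without passing 2-fold: 15 of 20 were above 0, the median was 0.40 and 0 were past it. The Trac level was 397 CPM for chow and 756 CPM for the ketogenic diet, 1.90-fold (1.45 to 2.55). Cd3e had 312 and 577 CPM and Cd3d, of the same complex, 1092 and 1078. With ribosomal protein and mitochondrial genes out of the totals, 13 of the 20 were above 0. In Cd4 cells the list median was 0.34.

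Genes of MHC class I presentation, which CD8 cells carry like most cells, were above 0 for all 18 measured, against 55.2% of all genes at 20 UMIs, and also with the totals without ribosomal protein and mitochondrial genes. Tap1 and Tapbp, which load peptides, passed 2-fold with 6 and 78 and with 9 and 120 UMIs. H2-D1 was at log2 0.66 (2163 and 3421 CPM) and B2m at 0.30. The list median was 0.47, and 0.20 in Cd4 cells.

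The interferon response list had 23 measured genes with a median of 0.56, and 0.53 with the 2 genes at 0 in chow set at their bounds. Of these 23, 5 were higher by the ratio with 0.5 added and 1 lower (Trim30a). Irf7, a master regulator, had 0 and 22 UMIs, at least 1.37-fold higher against 3 counts, and Gbp2, a guanylate-binding protein, 0 and 33, at least 2.06-fold higher. Isg15 was at 0.53. With 3 added to each count the list median was 0.04.

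**Figure D5:**
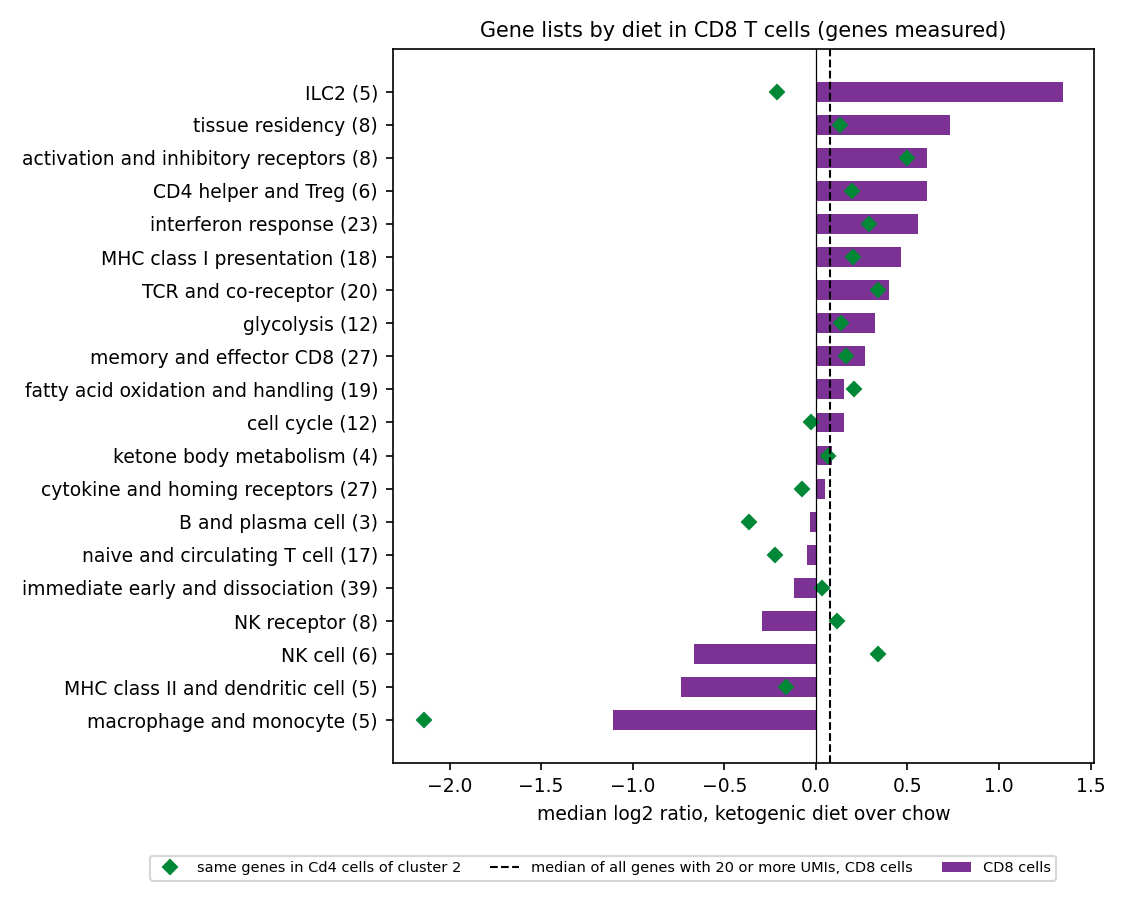
Median log2 ratio, ketogenic diet over chow, of each gene list in CD8 cells (bars, number of genes with 20 UMIs in brackets), the same genes in Cd4 cells (green) and the median of all genes (dashed, 0.07). Tissue residency is at 0.73 against 0.13 in Cd4 cells, and the macrophage list is low in both, at -1.11 and -2.14.

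Few fuel genes were deep enough to measure. Of 15 ketone body genes only 4 reached 20 UMIs. Oxct1, which breaks down ketone bodies for energy, was the 1 past 2-fold, with 2 and 36 UMIs and a fold of 3.37 (0.868 to 28.9). Bdh1 had 2 and 13 UMIs, and Hcar2, the receptor for the ketone body beta-hydroxybutyrate, 0 in both. Of 19 fatty acid genes, 3 were higher, Slc25a20 (1 and 31 UMIs), Hadhb (5 and 70) and Pdk1 (2 and 29). Plin2, the lipid droplet coat, was the 1 lower gene, with 9 and 12 UMIs, log2 -2.02. The list median was 0.16. Of 12 glycolysis genes, 11 were above 0 and 1 past 2-fold (Hk1, 1 and 27 UMIs), with a median of 0.32. These counts stand beside the 10.1% higher and 3.93% lower among all genes.

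Immediate early and dissociation genes, which move when tissue is digested, had a median of -0.12 over 39 genes, with 2 higher (Hspa1a and Socs3) and 5 lower (Fosb, Ier3, Atf3, Zfp36 and Cxcr4). Fos was at -0.69, Jun at 0.84 and Junb at 0.64.

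Genes of other cell types gave a check on the membership. The 11 MHC class II and dendritic genes summed to 2993 CPM (2715 to 3293) under chow and 1826 (1731 to 1925) under the ketogenic diet, and the 10 B and plasma cell genes to 1951 (1727 to 2195) and 1687 (1595 to 1782). Of a cell's UMIs, the 20 macrophage, dendritic, B and plasma markers took a median of 0.381% and 0.204%, and at most 0.767% and 5.16%. Only 1 cell, from the ketogenic library, was above 1%. The 5 measured genes of the group 2 innate lymphoid list had a median of 1.35, with Rora, Areg and Klrg1 higher, on 4, 3 and 3 chow UMIs. The helper and regulatory T cell list had a median of 0.60 over 6 genes, with Ikzf2 and Izumo1r higher on 1 and 3 chow UMIs, and Foxp3 had 0 UMIs under chow. Erythroid genes summed to 0 and 4 UMIs. NK cell genes were at -0.66 over 6 genes, with Tyrobp and Gzma lower. Their part in the diet ratios was not tested.

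Both ranges were also compared by diet. In cells without the naive-type set (26 and 139), the diet log2 ratio was 2.12 for Rgs1, 1.59 for Cxcr6, 2.12 for Ifng, 1.41 for Xcl1, 1.04 for Cd69 and 1.43 for Cxcr3. In cells with the set (20 and 67) it was 2.26 for Rgs1, 1.17 for Ifng, 1.32 for Xcl1, 0.14 for Cd69 and 0.62 for Cxcr3, and Cxcr6 had 0 and 46 UMIs. The chow sums behind these were 0 to 7 UMIs per gene.

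Cxcr6, Rgs1, Ifng and Gzmb were found together in few cells beyond what their shares give. Under the ketogenic diet 32 cells had UMIs of both Cxcr6 and Rgs1, where 29.9 would be shared if the 2 were independent, and 22 had both Cxcr6 and Gzmb, where 16.7 would be. For Cxcr6 with Ifng the numbers were 22 and 19.4, and for Ifng with Gzmb 13 and 10.4. Under chow 0 cells held any of these pairs, with 3 to 5 cells for each gene.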

How the data were processed

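RNA of single CD45+ cells was measured in 2 libraries, 1 per diet. The authors deposited un-normalised UMI counts, as whole numbers for each gene in each cell, and a cluster number per cell at resolution 0.5, per the file headers. Cell Ranger, Seurat and mm10 are named in the submitters' processing notes, without versions. Of 10159 cells, 10017 had a cluster, and the others were not used. Doublets were not called here, and the labels do not say whether they were removed. The cells and gene lists were chosen with earlier results of these data known.

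UMIs of each gene were summed over the CD8 cells of each library and divided by the total UMIs of those same cells to give CPM. Ratios are log2 with 0.5 added to each count. Genes needed 100 UMIs over both libraries, or 20 in a list. Mitochondrial, immunoglobulin and T cell receptor variable genes, Cd8a, Cd8b1 and Cd4 were left out. The named genes are the 12 highest and 12 lowest of each comparison (for CD8 over Cd4 cells, by the smaller ratio of the libraries), the list genes and the markers Cd8a, Cd8b1, Dapl1, Gzmm and Trac. Some genes of these lists are not reported here, and the naive-type set was reduced to Ccr7 and Lef1 after the data had been seen. With 1 library per diet there was no test. Shares at 1500 UMIs are hypergeometric expectations. Of 406 list genes, 401 were in the files. Gene positions are from GENCODE M21 (GRCm38). Python 3.11.15, numpy 2.4.6, pandas 2.3.3, scipy 1.17.1 and matplotlib 3.10.9 were used. The code for ratios and intervals was run on simulated Poisson sums. These leave out the clumping of UMIs in single cells, so the run does not show how well the intervals cover here.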

Additional observations from a re-analysis of the deposited data

Results flagged for a closer look

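Cxcr6, Ifng and Lamp1 had a CD8-over-Cd4 ratio of opposite sign in the 2 libraries: log2 -1.63 under chow and 0.48 under the ketogenic diet for Cxcr6, -1.40 and 0.08 for Ifng, and -1.92 and 0.04 for Lamp1. Under the ketogenic diet the log2 intervals of Ifng (-0.32 to 0.48) and Lamp1 (-0.38 to 0.46) include 0, so these ratios have no clear sign. Under chow that of Ifng (-3.61 to 0.25) does too. The chow CD8 sums were 6 UMIs for Cxcr6, 4 for Ifng and 4 for Lamp1. The ratio of ketogenic diet over chow of Bcl2a1d was 1.254 in CD8 cells and -0.080 in Cd4 cells. None of these differences was tested, since each diet is 1 library.

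Cells with the same co-receptor and CD3 counts as the CD8 cells also lay outside cluster 2. In cluster 4 they were 18 of 269 chow cells, 6.69% (4.01 to 10.4), and 67 of 515 ketogenic cells, 13.0% (10.2 to 16.2). In cluster 10 they were 8 of 142 (5.63%) and 23 of 154 (14.9%), at median depths of 9720.5 and 10049 UMIs. Cluster 7 held 3 of 160 and 20 of 328. The cells outside cluster 2 were not analysed here. Over all clusters 102 and 376 cells met these counts. Of them 45.1% and 54.8% lay in cluster 2 and 17.6% and 17.8% in cluster 4. In cluster 0, where Cd3e was in 3.51% and 5.27% of cells and Trbc2 in 59.0% and 74.0%, they were 0.117% and 0.382%. Whether those of cluster 0 come from free RNA was not tested.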

How the results depend on the processing

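With 1 library per diet, library, diet and free RNA cannot be told apart, and a gene needs many chow UMIs to be measured, since the chow cells hold 140978 UMIs. No paired analysis was possible because each diet has 1 library and the labels give no shared replicate numbers. The share ratio of 3.59 became 1.29 within cluster 2 and 1.54 within clusters 2, 7 and 11, and stayed between 2.70 and 3.71 under the other 6 alternatives. The 25 higher and 9 lower genes by diet became 13 higher with 3 added to each count, 16 lower after subtraction of 10% free RNA and 14 lower with totals without ribosomal protein and mitochondrial genes. With the minimum on the mean CPM of both libraries, a choice made after seeing the data, 11 were higher and 14 lower. The minimum set the counts most: 116 and 27 at 50 UMIs, 4 and 2 at 200, and 1406 and 1820 at 1 UMI. In cells without Ccr7 and Lef1 UMIs, a choice made after seeing the data, 5 were lower. Lists at least 0.5 above the median of all genes numbered 4, and 1 with 3 added. The 9 higher and 18 lower genes of CD8 over Cd4 cells became 22 and 35 at 50 UMIs, and 9 lower at 200. The naive-type shares of 43.5% and 32.5% were 25.7% and 20.1% at 1500 UMIs per cell and 15.2% and 19.4% with 2 UMIs required, which turned their order. The memory-type share of 97.8% under chow was 100% with 2 co-receptor UMIs, and that of 100% was 96.7% at 1500 UMIs. After the free RNA subtraction the Retnla ratio was 2.79 and the macrophage list median 1.47. Both come from the 0.5 added, since Retnla and 4 of the 5 macrophage genes were left with 0 chow UMIs, and neither gives a direction. Of the 16 lower genes after that subtraction, 7 had 0 UMIs left in a library. Ifng, Gzmb, Lamp1, Smpdl3a, G3bp1 and Slbp were past 2-fold in all 13 alternatives that gave them a value, and Rgs1 and Cxcr6 in all 14. Xcl1 was so in 13 of 14. Alternatives that change only the minimum leave a gene's ratio as it was, so those could not fail. The minimum on the mean CPM left out Ifng, Gzmb, Lamp1, Smpdl3a, G3bp1 and Slbp. After the free RNA subtraction Lamp1 kept 0.641 chow UMIs, so its ratio there leans on the 0.5 added. The cause of the changes listed here was not tested. Leaving out cells with 3 or more UMIs of other-lineage markers gave no value, because it removed all 46 chow cells.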

Other observations

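T cell receptor variable genes were too shallow to describe the receptors, with 5 UMIs in 4 chow cells and 33 UMIs in 28 ketogenic cells.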
